A study of Mus musculus with 13 samples.

Results

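The genes described here are 9 mouse genes of autophagy and protein quality control: Sqstm1, Optn, Tbk1, Vcp, Ubqln2, C9orf72, Map1lc3b, Gabarapl1 and Vapb. They were read from the count tables by their Ensembl identifiers, matched to GENCODE mouse names, and make up 9 of the 48709 gene rows. All 9 had enough reads to be among the 17403 genes tested. Inherited changes in the human counterparts of 7 of them, all but Map1lc3b and Gabarapl1, have been linked to amyotrophic lateral sclerosis (ALS), the disease in which motoneurons degenerate. The selection rule names the 9 genes and uses no measured value, but the set was chosen with earlier results of these data known.

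The libraries came from motoneurons cut by laser microdissection out of cresyl violet-stained lumbar spinal cord sections, with one pool of 500 motoneurons per mouse, at 65 days of age. Every mouse, controls included, carried the SOD1-G93A transgene, a mutant human SOD1 that causes motoneuron disease in mice. The AAV-miR SOD1 group (n = 4) had received, into the cerebral ventricles at postnatal day 2, an adeno-associated virus that makes an artificial microRNA directed at the human SOD1 transcript in astrocytes, whereas motoneurons were the cells captured. Mice of the AAV-miR ctrl group (n = 5) had the control vector in its place. The third group, non-injected (n = 4), was made up of transgenic littermates that had no vector. No mice without the transgene were among the 13 samples. Each library is one mouse and held 13897189 to 37414222 counts in genes, and the 4 deepest were control libraries numbered 5 or 6. The column headers of 2 libraries, the third replicate of AAV-miR ctrl and that of the non-injected group, named each other's group, and GEO's labels were followed. The targeted human transcript has no row among these mouse genes. The mouse Sod1 row, which the microRNA was not designed against, ran, in CPM (counts scaled to a common library size), from 168 to 273 in the AAV-miR SOD1 group, from 219.9 to 352 in AAV-miR ctrl and from 232 to 472 in non-injected, so it does not check the treatment.

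Macroautophagy encloses damaged proteins and organelles in a double membrane that fuses with the lysosome. Receptors such as p62 (encoded by Sqstm1) and optineurin (Optn) hold ubiquitin-tagged cargo with one end and bind, with the other, small Atg8-like proteins attached to the growing membrane, among them LC3B (Map1lc3b) and GABARAPL1. The kinase TBK1 phosphorylates optineurin and p62 and strengthens their grip on cargo. The other route, the ubiquitin-proteasome system, relies on the ATPase p97 (Vcp) to pull ubiquitinated proteins out of complexes and membranes and on ubiquilins such as Ubqln2 to carry them to the proteasome. C9orf72 acts in a complex with SMCR8 and WDR41 that regulates small GTPases in autophagy and at the lysosome. VAPB is a protein of the endoplasmic reticulum membrane that tethers it to other organelles. In ALS, p62-positive inclusions are a common finding in motoneurons.

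In AAV-miR SOD1 libraries, 5 of the 9 genes were at lower levels than in the controls: Sqstm1, Gabarapl1, Map1lc3b, C9orf72 and Vapb, at 47.1% to 73.0% of the non-injected level. The other 4, Optn, Tbk1, Vcp and Ubqln2, had group means near one another. None of the 9 passed the false discovery rate threshold of 0.05 in edgeR's quasi-likelihood test over all genes in any comparison, and no other gene did. The differences therefore stand as measured values with their intervals, and single libraries and the choice of test moved some of them. Laser-captured pools are bulk samples, in which fewer motoneurons and less RNA per motoneuron cannot be told apart.

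**Figure D1:**
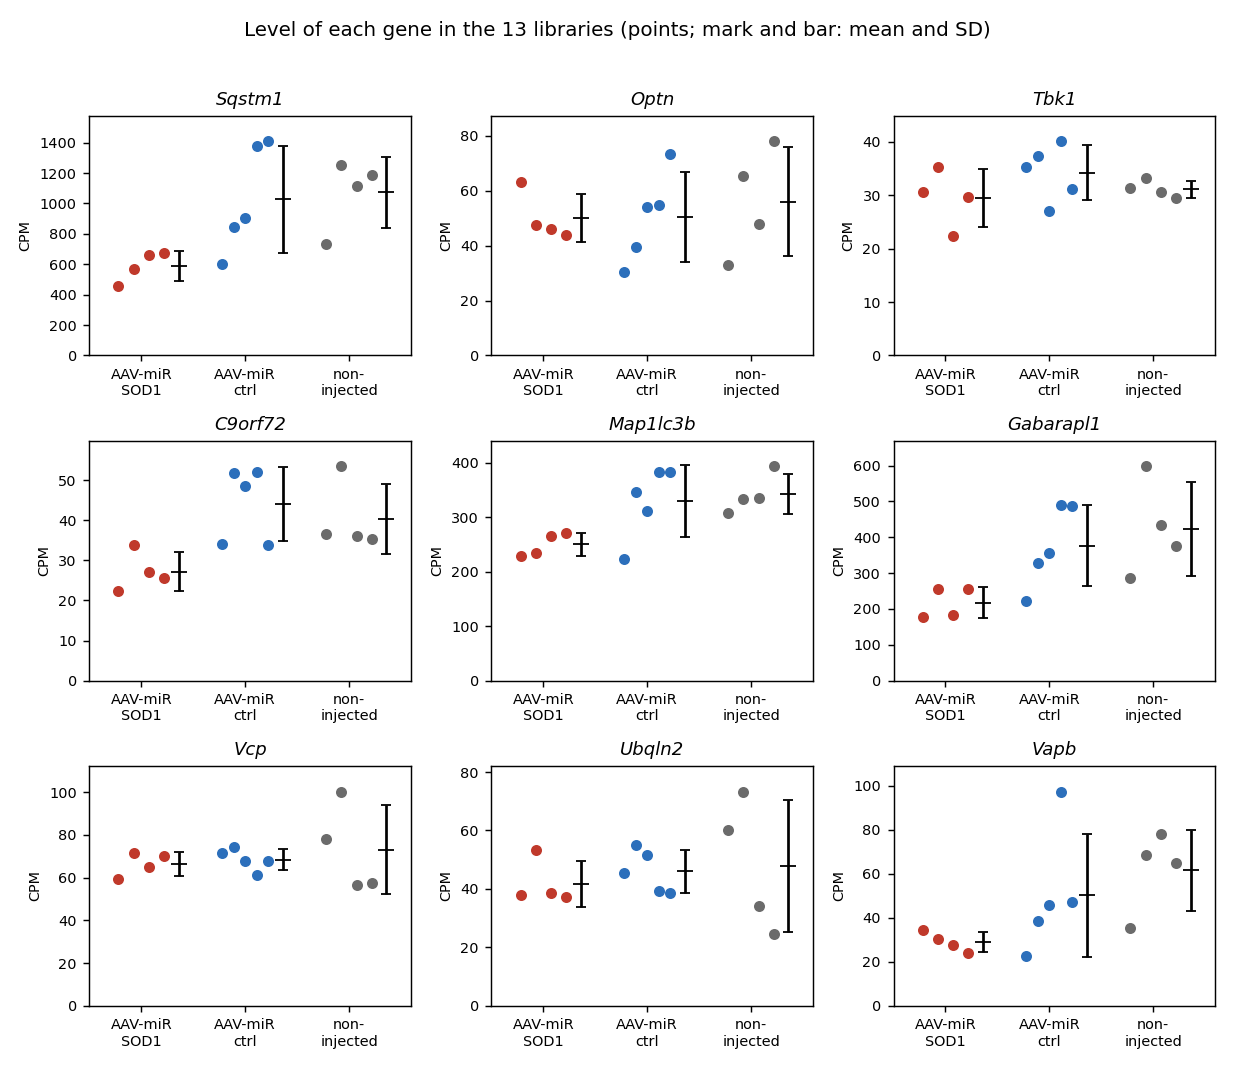
Level of each of the 9 genes in CPM (linear axis from 0) in every library, with replicates in the order of their numbers (points), and the mean and SD of each group (black). Sqstm1, Gabarapl1, Map1lc3b, C9orf72 and Vapb sit low in all 4 AAV-miR SOD1 libraries, while the points of Optn, Tbk1, Vcp and Ubqln2 overlap across the 3 groups.

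The 8 motoneuron markers (Chat, Slc5a7, Slc18a3, Mnx1, Isl1, Prph, Slc10a4 and Ret) were above 0 in every library. Their summed level ran from 672 to 1306 CPM in AAV-miR SOD1, from 964 to 2732 in AAV-miR ctrl and from 1177 to 2925 in non-injected. At unadjusted p under 0.05 with edgeR, 7 of 8 were lower than in AAV-miR ctrl and 8 of 8 lower than in non-injected. The median log2 differences were -0.89 and -1.20, and 0 passed edgeR's adjusted threshold. The differences of Sqstm1, Gabarapl1, Map1lc3b, C9orf72 and Vapb had the same direction. Over all genes, 8.54% were lower and 5.99% higher at unadjusted p under 0.05 against AAV-miR ctrl, and 11.5% and 9.36% against non-injected. The 9 erythroid markers measured were all higher in AAV-miR SOD1 at unadjusted p under 0.05 against either control group, with sums of 21155 to 47920 CPM, against 3609 to 28358 in AAV-miR ctrl and 5614 to 20390.3 in non-injected. In the same order of groups, the 8 neutrophil granule markers summed to 28777 to 78452, 10129 to 67171 and 14343 to 23450 CPM, with 1 and 5 of 8 higher against the control groups. The 9 microglial markers summed to 817 to 1098, 476 to 1310 and 281 to 758 CPM, with 1 and 4 of 9 higher. The 8 astrocyte markers summed to 859.8 to 1177, 1203 to 1631 and 940.4 to 1704 CPM, with 1 of 8 lower against either group. The 7 oligodendrocyte markers summed to 1202 to 2755, 1144 to 4566 and 1843 to 2836 CPM and the 5 endothelial markers to 109 to 172, 91.3 to 158 and 68.8 to 152, with 0 of either list at unadjusted p under 0.05. After adjustment DESeq2, an alternative test, passed 0 and 6 of 8 motoneuron markers against AAV-miR ctrl and non-injected, and 4 and 9 of 9 erythroid ones. It passed 0 and 1 neutrophil granule, 0 and 2 microglial, 1 and 1 astrocyte, and 0 oligodendrocyte or endothelial markers. Over all genes it passed 1.03% and 5.89%. Each of the markers in these lists was above 0 in all 13 libraries. The part of these cells, and of the motoneuron share, in the values of the 9 genes was not tested.

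**Figure D2:**
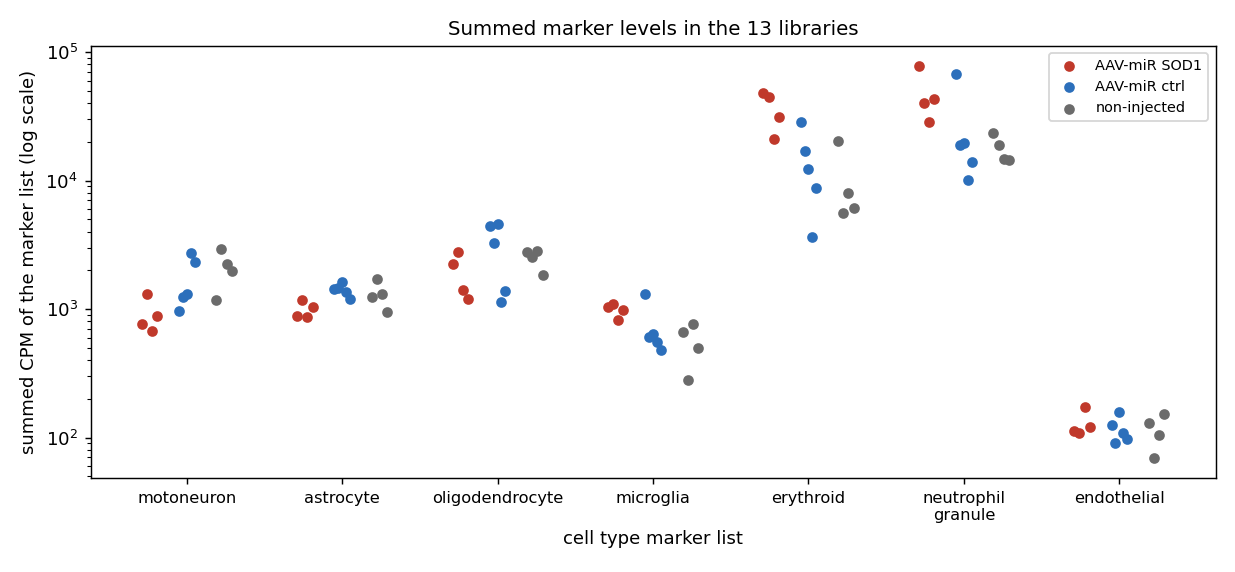
Summed CPM of each cell type marker list (logarithmic axis) in the 13 libraries, coloured by group. The motoneuron sums of AAV-miR SOD1 lie between 672 and 1306, at the low end of the controls, and its erythroid sums between 21155 and 47920, at the high end.

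The stretches of DNA just outside the annotated first exons of these 5 genes are shown because the 5 were low in the same libraries. They are RefSeq promoter sequences of build GRCm38.p6, written 5′ to 3′ on the gene's own strand and ended where the GENCODE exons of the gene begin. Capitals mark the GC box CCGCCC or its reverse complement, GGGCGG, the core sequence bound by Sp1-family factors. Sqstm1 lies on chr11:50210828-50210947 (minus strand), C9orf72 on chr4:35225881-35225928 (minus, between alternative first exons), Map1lc3b on chr8:121590241-121590360 (plus), Gabarapl1 on chr6:129533040-129533159 (plus, within the antisense gene 1700101I11Rik) and Vapb on chr2:173737391-173737510 (plus).
Sqstm1: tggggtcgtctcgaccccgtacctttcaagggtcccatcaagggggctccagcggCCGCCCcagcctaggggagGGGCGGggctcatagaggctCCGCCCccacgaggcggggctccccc
C9orf72: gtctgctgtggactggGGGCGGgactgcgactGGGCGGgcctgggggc
Map1lc3b: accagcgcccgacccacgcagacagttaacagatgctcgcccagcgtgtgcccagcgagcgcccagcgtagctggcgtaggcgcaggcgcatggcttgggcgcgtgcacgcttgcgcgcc
Gabarapl1: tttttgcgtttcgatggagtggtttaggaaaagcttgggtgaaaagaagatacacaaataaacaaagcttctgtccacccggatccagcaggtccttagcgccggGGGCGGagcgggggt
Vapb: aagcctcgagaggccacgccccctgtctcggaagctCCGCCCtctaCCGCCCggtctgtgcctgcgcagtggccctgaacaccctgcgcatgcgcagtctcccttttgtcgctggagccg
The printed stretches hold 3 GC boxes for Sqstm1, 2 each for C9orf72 and Vapb, 1 for Gabarapl1 and 0 for Map1lc3b, which has 1 elsewhere in its window. Over whole windows of 300 bases (250 before the RefSeq start and 50 after), counted on both strands, 7 of the 8 members with an entry held a GC box, all but Vcp, against 35.7% of the 32851 promoters in the table. The windows of Sqstm1 (63.3% G or C), Tbk1 (69.0%), Vcp (55.7%), C9orf72 (67.7%), Map1lc3b (68.0%) and Vapb (67.7%) were richer in G and C than the median of the table, 52.7%. The Optn window was at 52.7% and that of Gabarapl1 at 46.3%. The part of G and C content in the count of GC boxes was not tested. Optn and Tbk1, whose levels did not separate the groups, held 2 and 3. TAAACA, the core of forkhead factor sites, was found in the Gabarapl1 window alone among the 8, against 13.4% of all windows. CACGTG, the E-box core that TFEB and related factors bind, was found in Tbk1 alone, against 7.2%. TGACNNNGC, the core of the antioxidant response element, was found in Vcp and Map1lc3b, against 12.4%. A match describes letters in a window, not a bound site.

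Levels differed more between genes than between groups. Per kilobase of merged exon and averaged over the 13 libraries, Sqstm1 stood highest at 270.3 ± 97.1 CPM per kilobase (SD, n = 13). Gabarapl1 followed at 169.9 ± 64.6 and Map1lc3b at 41.2 ± 8.02. These 3, the receptor p62 and a pair of Atg8 proteins, kept their order in 13 of 13 libraries and all stood above Vcp there. Per kilobase of the principal transcript, Gabarapl1 (187.9 ± 71.5) and Map1lc3b (122.2 ± 23.8) lay closer together, and Gabarapl1 was the higher in 12 of 13.

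The 3 genes next in order were Vcp (14.3 ± 2.36 CPM per kilobase of merged exon), Optn (13.9 ± 3.91) and Ubqln2 (13.5 ± 3.87). On this length they could not be ranked, since Vcp exceeded Optn in 7 of 13 libraries and Optn exceeded Ubqln2 in 7 of 13. Ubqln2 was above C9orf72 (8.196 ± 2.27) in 12 of 13. C9orf72, Tbk1 (8.14 ± 1.17) and Vapb (6.62 ± 3.25) again overlapped, with C9orf72 above Tbk1 in 6 of 13 and Tbk1 above Vapb in 9 of 13. Dividing by the principal transcript's length left the ranks of the 9 means as they were but changed the overlaps. Optn was then above Ubqln2 in 10 of 13 libraries, Ubqln2 above C9orf72 in 10, C9orf72 above Tbk1 in 9 and Tbk1 above Vapb in 11. Vapb varied most over the libraries, with a log2 CPM range of 2.10, and Tbk1 and Vcp varied least, with SDs of 0.21 and 0.22.

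Among the autophagy receptors, Sqstm1 (ENSMUSG00000015837, chr11:50199366-50210827, minus strand) was at 459.7, 566, 661 and 672 CPM in AAV-miR SOD1 replicates 1, 2, 3 and 4. In AAV-miR ctrl replicates 1, 3, 4, 5 and 6 it was at 603, 848, 907, 1378 and 1409 CPM, and in non-injected replicates 2, 3, 5 and 6 at 734, 1252, 1117 and 1188. All 4 AAV-miR SOD1 values lay below every non-injected value, and one control library, AAV-miR ctrl replicate 1, fell inside the AAV-miR SOD1 range. Sqstm1 was lower by 0.80 ± 0.28 (log2, SE) than in AAV-miR ctrl, that is at 57.3% of its level (95% interval of the log2 difference -1.41 to -0.20, edgeR adjusted p = 0.276). It was at 55.0% of the non-injected level (-0.86 ± 0.29, interval -1.49 to -0.23, adjusted p = 0.147). Mrnip, a gene on the opposite strand with 56 to 250 counts per library, overlaps 17.3% of Sqstm1's exon bases. Sqstm1 itself had 10327 to 52407 counts.

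Optn (chr2:5020642-5064051, minus strand), the other receptor, was at 63.0, 47.3, 46.0 and 43.7 CPM in the AAV-miR SOD1 libraries. It was at 30.3, 39.4, 53.9, 54.8 and 73.5 in AAV-miR ctrl and at 32.9, 65.4, 47.8 and 78.0 in non-injected. The controls enclosed the AAV-miR SOD1 values on both sides. The log2 differences from the 2 groups were -0.01 (95% interval -0.61 to 0.59) and -0.16 (-0.80 to 0.47), so a halving of Optn lay outside both intervals while smaller changes did not. Tbk1 (chr10:121546455-121586787, minus strand), the kinase that acts on both receptors, spanned 22.3 to 35.4 CPM in AAV-miR SOD1, 27.1 to 40.1 in AAV-miR ctrl and 29.5 to 33.3 in non-injected. Its log2 differences were -0.22 ± 0.18 (edgeR adjusted p = 0.605) and -0.08 ± 0.19 (adjusted p = 0.844), with overlapping groups.

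Of the 2 Atg8 proteins, Gabarapl1 (ENSMUSG00000030161, chr6:129533160-129542346, plus strand) showed the wider gap. It was at 176, 257, 183 and 254 CPM in AAV-miR SOD1. In AAV-miR ctrl it was at 222, 327, 356, 489.9 and 488, and in non-injected at 287, 597, 433 and 376. The highest AAV-miR SOD1 value was below the lowest non-injected one, and AAV-miR ctrl replicate 1 again lay among the AAV-miR SOD1 libraries. The level was 57.8% of AAV-miR ctrl (log2 difference -0.79 ± 0.28, 95% interval -1.38 to -0.20, edgeR adjusted p = 0.276) and 51.4% of non-injected (-0.96 ± 0.29, interval -1.58 to -0.34, adjusted p = 0.140). The antisense gene 1700101I11Rik covers 28.3% of Gabarapl1's exon bases but had 7 to 77 counts per library.

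Map1lc3b (ENSMUSG00000031812, chr8:121590361-121598760, plus strand), the gene of LC3B, was at 229, 234, 266 and 271 CPM in AAV-miR SOD1. It was at 223, 346, 313, 384 and 384 in AAV-miR ctrl and at 308, 333, 337 and 394 in non-injected. The AAV-miR SOD1 values formed a narrow band below all non-injected values, and the lowest of all 13 libraries was AAV-miR ctrl replicate 1. The log2 difference was -0.40 ± 0.19 from AAV-miR ctrl (95% interval -0.81 to 0.0092, edgeR adjusted p = 0.355) and -0.45 ± 0.20 from non-injected (interval -0.88 to -0.03, adjusted p = 0.215). These are 75.8% and 73.0% of the control levels, a smaller gap than that of Gabarapl1 in both estimates, though the difference between the genes was not tested.

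The 3 Atg8 genes outside the set did not move as one. Map1lc3a, the gene of LC3A, did not overlap the non-injected group and was lower by 1.05 ± 0.36 (log2, edgeR adjusted p = 0.147), yet it overlapped AAV-miR ctrl (-0.45 ± 0.34, adjusted p = 0.564). Gabarap spanned 453 to 620.3 in AAV-miR SOD1 and 388 to 635 over both control groups, with log2 differences of 0.07 and 0.11. Gabarapl2 had differences of -0.29 ± 0.17 (edgeR adjusted p = 0.437) and -0.34 ± 0.18 (adjusted p = 0.290).

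C9orf72 (ENSMUSG00000028300, chr4:35191285-35226175, minus strand) was at 22.4, 33.9, 27.0 and 25.5 CPM in AAV-miR SOD1. It was at 34.2, 51.8, 48.5, 52.0 and 33.8 in AAV-miR ctrl and at 36.6, 53.4, 35.98 and 35.4 in non-injected. The 4 AAV-miR SOD1 values lay below all non-injected values, and AAV-miR SOD1 replicate 2 was above one AAV-miR ctrl library, replicate 6, by a small margin. C9orf72 had the smallest p among the 9 genes against AAV-miR ctrl, with 61.7% of its level (log2 difference -0.70 ± 0.21, 95% interval -1.15 to -0.24, edgeR adjusted p = 0.256). Against non-injected it stood at 67.4% (-0.57 ± 0.22, interval -1.04 to -0.09, adjusted p = 0.174). In the comparison with AAV-miR ctrl its unadjusted p stayed under 0.05 in all 25 alternative analyses run, with log2 differences from -0.82 to -0.57. Of its complex partners, Smcr8 differed by -0.03 ± 0.30 and 0.12 ± 0.32 from the 2 control groups, and Wdr41 by -0.20 ± 0.39 and -0.47 ± 0.41, the latter measured at 8.67 to 26.5 CPM. The interval of Wdr41 against non-injected, -1.36 to 0.41, includes the C9orf72 difference.

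Vapb (ENSMUSG00000054455, chr2:173737511-173784336, plus strand) was at 34.6, 30.2, 27.5 and 23.8 CPM in AAV-miR SOD1. It was at 22.7, 38.4, 45.7, 97.3 and 46.9 in AAV-miR ctrl and at 35.3, 68.4, 78.0 and 64.8 in non-injected. The non-injected values were all higher than the AAV-miR SOD1 values, the closest being non-injected replicate 2. Vapb had the largest estimated difference of the 9 genes from the non-injected group, at 47.1% (log2 -1.09 ± 0.37, 95% interval -1.87 to -0.30, edgeR adjusted p = 0.147). Its difference from AAV-miR ctrl, -0.79 ± 0.35 (interval -1.54 to -0.04, adjusted p = 0.322), depended on AAV-miR ctrl replicate 5, without which it was -0.41. It was no longer at unadjusted p under 0.05 there, nor without AAV-miR SOD1 replicates 2, 3 or 4 or AAV-miR ctrl replicate 6, and was so in 16 of 25 alternatives. Vapa, its paralog, overlapped between all groups, with log2 differences of -0.14 ± 0.38 and -0.65 ± 0.40.

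For the proteasome-linked members, Vcp (chr4:42979963-43000507, minus strand) was at 59.2, 71.3, 64.8 and 70.0 CPM in AAV-miR SOD1. It spanned 61.2 to 74.3 in AAV-miR ctrl and was at 78.1, 100.2, 56.5 and 57.2 in non-injected. The groups overlapped, and the log2 differences were -0.04 (95% interval -0.44 to 0.35) and -0.14 (-0.55 to 0.28). Of the stretches of 50 bases in Vcp transcripts, 40.5% also occur in the copy Vcp-rs, so the Vcp counts are uncertain to the extent that reads shared by both were left uncounted. Ubqln2 (chrX:153498227-153501570, plus strand, 1 exon) was at 37.8, 53.2, 38.6 and 37.1 CPM in AAV-miR SOD1 and spanned 38.7 to 55.2 in AAV-miR ctrl. In non-injected it was at 60.02, 73.3, 34.2 and 24.4, a spread that enclosed every other library. Its log2 differences were -0.14 ± 0.28 and -0.20 ± 0.29. Over the alternatives they ran from -0.48 to -0.012 against AAV-miR ctrl and from -0.65 to 0.14 against non-injected. They were at unadjusted p under 0.05 in 0 and 1 of 25. Of its paralogs, Ubqln1 was lower than in non-injected both in AAV-miR SOD1 (-0.75 ± 0.32, edgeR adjusted p = 0.197) and in AAV-miR ctrl (-0.66 ± 0.30, adjusted p = 1.00), and Ubqln4 differed by -0.27 and -0.34.

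**Figure D3:**
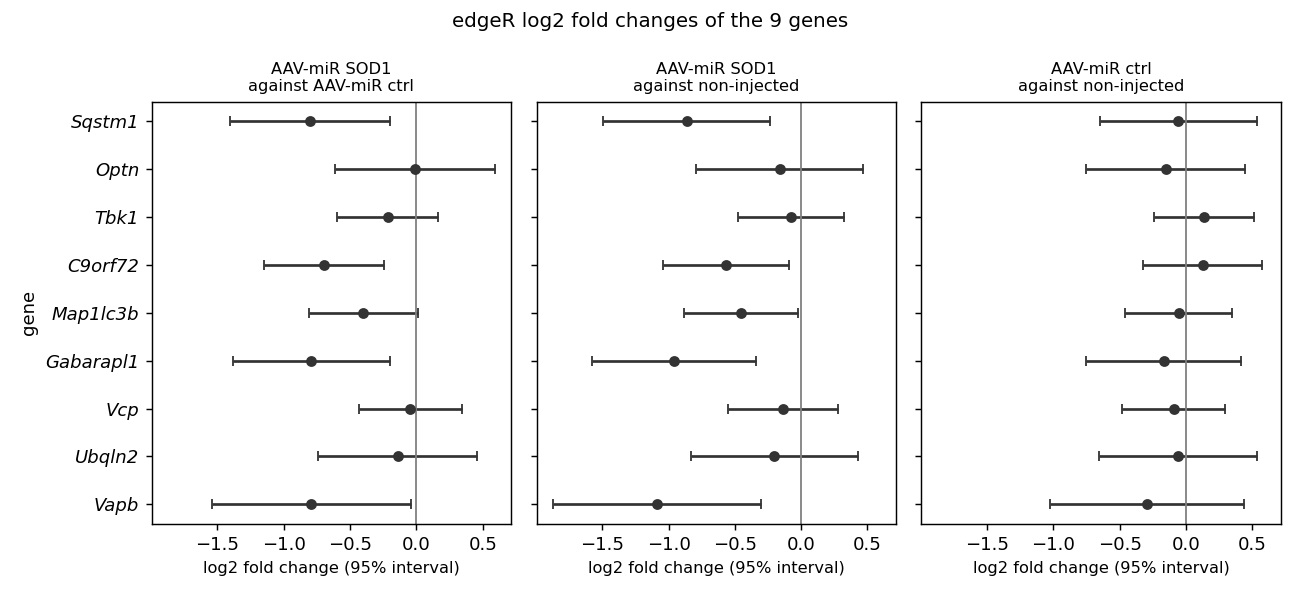
edgeR log2 fold change of each gene (points) with its 95% interval (bars) in the 3 comparisons between groups; negative values are lower in the first-named group. The intervals of Sqstm1, C9orf72, Gabarapl1 and Vapb lie below 0 in the first 2 panels and that of Map1lc3b in the second, and every interval of AAV-miR ctrl against non-injected spans 0.

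Counted over the set, 9 of 9 log2 differences were below 0 against AAV-miR ctrl, with a median of -0.40, but Optn was above 0 in 15 of 25 alternatives (RLE, upper quartile and no scaling among them) and Vcp in 6 (no scaling among them). Of the 17403 tested genes 9344 were below 0, and their median was -0.04. At unadjusted p under 0.05, 4 of the 9 were lower (Sqstm1, Gabarapl1, C9orf72 and Vapb) and 0 higher, against 8.54% of all genes lower and 5.99% higher. The set was chosen with earlier results of these data known, so its counts, here and below, are a description beside those of all genes. The adjusted count was 0 with edgeR, DESeq2 and limma-voom alike, against 0%, 1.03% and 0% of all genes. No member separated AAV-miR SOD1 from AAV-miR ctrl without overlap, against 3.73% of all genes. With the libraries numbered 1 to 4 alone, 1 of the 9 remained at unadjusted p under 0.05, C9orf72 at -0.71, and Sqstm1 stood at -0.41, Gabarapl1 at -0.46, Vapb at -0.28 and Map1lc3b at -0.22. Number and depth run together in that restriction, since the libraries numbered 5 or 6 are all controls. Without both header-mismatched libraries, Sqstm1 (-0.81), C9orf72 (-0.58) and Gabarapl1 (-0.78) remained at unadjusted p under 0.05, and Vapb stood at -0.81 and Map1lc3b at -0.32.

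Against non-injected, 9 of 9 differences were again below 0, with a median of -0.45, where 9594 of 17403 genes were, with a median of -0.09. Here 5 of 9 were lower at unadjusted p under 0.05 and 0 higher, against 11.5% of all genes lower and 9.36% higher. The same 5 did not overlap the non-injected group, against 11.7% of all genes in either direction and 5.81% on the lower side. No member passed the adjusted threshold with edgeR or limma-voom (0% of all genes in both), and 1 did with DESeq2, Gabarapl1 (adjusted p = 0.0368), against 5.89% of all genes. Map1lc3b was at unadjusted p under 0.05 in only 9 of 25 alternatives, and it lost that place when any of 8 libraries was left out (AAV-miR SOD1 replicates 1, 2 and 3, AAV-miR ctrl replicate 3 and each of the 4 non-injected replicates). The count at unadjusted p under 0.05 dropped to 3 (Sqstm1, Gabarapl1 and Vapb) without AAV-miR SOD1 replicate 1, without AAV-miR SOD1 replicate 3, and without non-injected replicate 3. It was also 3 without both libraries whose headers and labels disagree, where Sqstm1 stood at -0.70, Gabarapl1 at -0.67, Vapb at -0.95, Map1lc3b at -0.39 and C9orf72 at -0.33 in place of -0.57.

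Between the 2 control groups, of the 9 genes 7 were lower in AAV-miR ctrl than in non-injected and 2 higher, the median was -0.06, and the log2 differences ran from -0.29 for Vapb to 0.14 for Tbk1, with edgeR adjusted p = 1.00 throughout. None reached an unadjusted p under 0.05 with edgeR, against 1.38% of all genes higher and 2.24% lower, and none did so after adjustment with DESeq2 or limma-voom, against 0.0115% and 0%. None separated the groups without overlap, against 0.816%. Without AAV-miR ctrl replicate 5, 1 did reach an unadjusted p under 0.05, Vapb, whose difference moved from -0.29 to -0.68.

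Taking both control groups together, an average that shares its samples with the comparisons above, 5 of 9 genes were lower at unadjusted p under 0.05, against 12.1% of all genes lower and 10.2% higher. None of the 9 kept all 4 AAV-miR SOD1 libraries apart from all 9 controls, against 1.82% of all genes. The log2 differences were -0.94 ± 0.32 for Vapb, -0.88 ± 0.25 for Gabarapl1, -0.83 ± 0.26 for Sqstm1, -0.63 ± 0.19 for C9orf72 and -0.43 ± 0.17 for Map1lc3b. Their edgeR adjusted p-values ran from 0.101 for Gabarapl1 to 0.169 for Map1lc3b, and 0% of all genes passed. DESeq2 placed 3 of the 9 under 0.05, Gabarapl1 (adjusted p = 0.0189), Sqstm1 (0.0208) and C9orf72 (0.0370), against 8.74% of all genes. limma-voom with quality weights placed the same 3 under it (0.0347, 0.0367 and 0.0442), against 8.4% of all genes. Without both header-mismatched libraries the edgeR differences were -0.88 for Vapb, -0.73 for Gabarapl1, -0.76 for Sqstm1, -0.46 for C9orf72 and -0.36 for Map1lc3b, and 4 of the 5, all but Map1lc3b, remained at unadjusted p under 0.05.

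One control library decided the edgeR calls of that comparison. Leaving out AAV-miR ctrl replicate 1 gave adjusted p-values of 0.0287 for Gabarapl1, 0.0318 for Sqstm1, 0.0382 for Vapb and 0.0431 for C9orf72, so 4 of 9 passed, where 9.84% of all genes tested did, and 0.0550 for Map1lc3b. That library was the lowest of all 13 for 3 members, Map1lc3b, Vapb and Optn. It also had the highest summed level of microglial markers of all libraries (1310 CPM) and, within the controls, the highest erythroid (28358 CPM) and neutrophil granule (67171 CPM) sums and the lowest motoneuron sum (964 CPM). The part of these levels in its values was not tested.

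**Figure D4:**
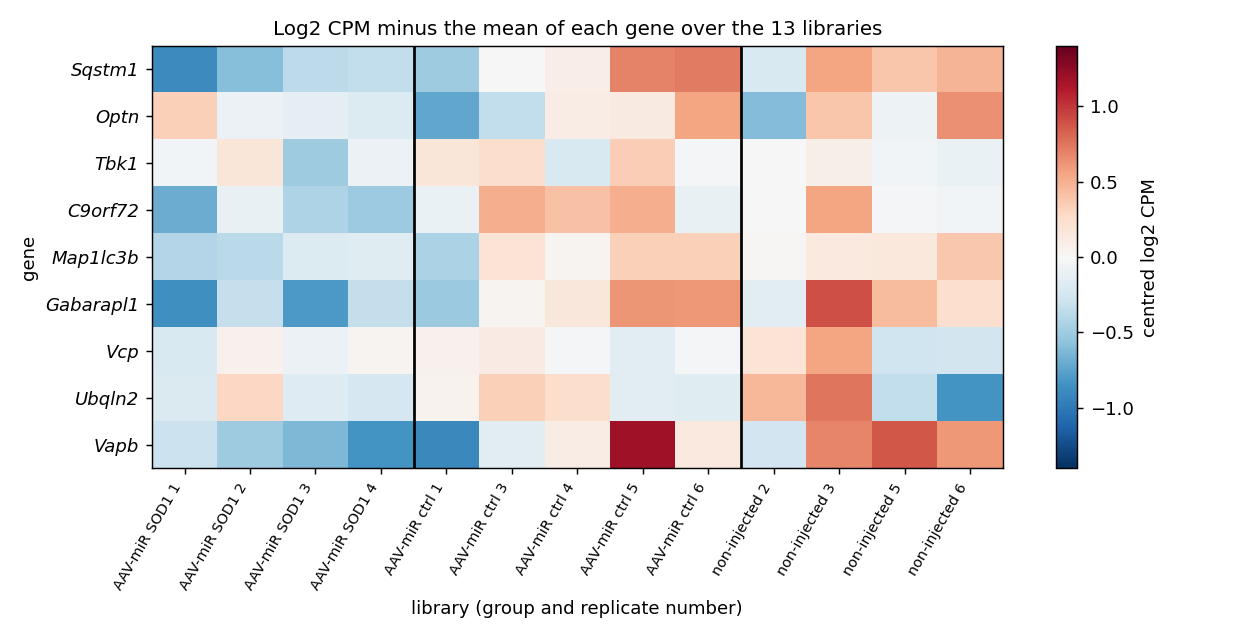
Log2 CPM of each gene in each library minus that gene's mean over the 13 libraries, on a colour scale from blue (lower) to red (higher); black lines separate the 3 groups. AAV-miR SOD1 replicate 3 is below the mean for all 9 genes and non-injected replicate 3 above it for all 9, and AAV-miR ctrl replicate 1 is low for Sqstm1, Map1lc3b, Gabarapl1, Optn and Vapb.

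Of the wider machinery around the 9 genes, 148 genes in 12 lists were tested, 139 of them outside the set. The lists were chosen with earlier results of these data known. None of the 148 passed the edgeR adjusted threshold against both control groups together, and at unadjusted p under 0.05 34 were lower and 5 higher, where 12.1% and 10.2% of all genes were. Against AAV-miR ctrl the counts were 18 lower and 3 higher, and against non-injected 31 and 4. In either direction the shares of the 148 were 14.2%, 23.6% and 26.4% against AAV-miR ctrl, non-injected and both, close to the 14.5%, 20.9% and 22.2% of all genes. Below 0 were 110, 111 and 113 of the 148, or 74.3%, 75.0% and 76.4%, where 53.7%, 55.1% and 54.2% of all genes were. These counts include the 9 members. Of the 139 genes outside the set, 29 were lower and 5 higher at unadjusted p under 0.05 against both. Their shares in either direction were 12.2%, 21.6% and 24.5% in the 3 comparisons, and 72.7%, 73.4% and 74.8% were below 0. The counts of the 148 moved with single libraries. The total against AAV-miR ctrl, 21, was 38 without AAV-miR ctrl replicate 1, 6 without AAV-miR SOD1 replicate 1 or AAV-miR ctrl replicate 5, 8 without AAV-miR SOD1 replicate 2 or AAV-miR ctrl replicate 6, 11 without AAV-miR ctrl replicate 3 and 13 without non-injected replicate 2. Against non-injected, 35 became 19, 22 and 18 without, in turn, AAV-miR SOD1 replicate 1, the third AAV-miR ctrl replicate and that of the non-injected group, and against both, 39 became 19 and 22 without the first 2 of these. Leaving out both header-mismatched libraries gave 12, 8 and 15 in the 3 comparisons, and the libraries numbered 1 to 4 alone gave 2, 20 and 13.

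The proteasome degrades what p97 and ubiquilins deliver. All 32 subunit genes listed were below 0 against AAV-miR ctrl (27 to 32 over the alternatives, 31 with no scaling beyond totals), against non-injected (29 to 32) and against both (30 to 32), with median log2 differences of -0.28, -0.33 and -0.30, where the medians over all genes were -0.04, -0.09 and -0.06. Between the control groups 31 of 32 were also below 0 (13 to 32 over the alternatives), with a median of -0.075, where 52.0% of all genes were. Of the 32, 5, 11 and 13 were lower at unadjusted p under 0.05 in the 3 AAV-miR SOD1 comparisons, where 8.54%, 11.5% and 12.1% of all genes were, and 0 were higher. Psmd12 (-0.57 ± 0.19, edgeR adjusted p = 0.122) and Psmd1 (-0.41 ± 0.14, adjusted p = 0.127), subunits of the regulatory cap, had the smallest p against both. Against AAV-miR ctrl, the 5 became 15 without AAV-miR ctrl replicate 1, 0 without AAV-miR SOD1 replicates 1 or 2 or AAV-miR ctrl replicates 3, 5 or 6, 1 without AAV-miR SOD1 replicate 3, and 2 without AAV-miR ctrl replicate 4 or non-injected replicate 2. Against non-injected, the 11 became 4 without AAV-miR SOD1 replicate 1, 6 without AAV-miR SOD1 replicate 2 or non-injected replicates 3 or 5, 7 without AAV-miR ctrl replicate 3, and 0 without both header-mismatched libraries. The 13 lower at unadjusted p under 0.05 against both became 5 without AAV-miR SOD1 replicate 1 or AAV-miR ctrl replicate 3, 6 without AAV-miR SOD1 replicate 2, 8 without AAV-miR SOD1 replicate 3 and 3 without both header-mismatched libraries.

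The lysosome list, the end point of autophagy, had 18, 20 and 20 of 24 genes below 0 against AAV-miR ctrl, non-injected and both. Over the alternatives these ran from 15 to 20, 14 to 21 and 15 to 20. Of all genes 53.7%, 55.1% and 54.2% were below 0. Between the control groups 14 of 24 were (9 to 19 over the alternatives), where 52.0% of all genes were. At unadjusted p under 0.05, 4, 5 and 8 were lower (0 to 8, 0 to 6 and 1 to 10 over the alternatives), where 8.54%, 11.5% and 12.1% of all genes were. Against both, the 8 became 1 without AAV-miR SOD1 replicate 1 or without both header-mismatched libraries, 2 without AAV-miR ctrl replicate 6 or non-injected replicate 5, 3 without AAV-miR SOD1 replicates 3 or 4 or AAV-miR ctrl replicate 5, 4 without non-injected replicate 3, 5 without AAV-miR ctrl replicate 3 or non-injected replicate 6, and 9 without AAV-miR ctrl replicate 1. Atp6v1h, a subunit of the proton pump that acidifies the lysosome, had the smallest p of the list, lower by 1.04 ± 0.29 (log2, edgeR adjusted p = 0.0970). Gaa, the enzyme that breaks down lysosomal glycogen, was lower by 0.54 ± 0.19 (adjusted p = 0.127).

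Upstream steps are compared here with both control groups together. In that comparison 54.2% of all genes were below 0. At unadjusted p under 0.05, 12.1% of all genes were lower and 10.2% higher. In the list of Atg8 conjugation and phagophore growth, 8 of 18 genes were below 0 with a median of 0.01, and the genes at unadjusted p under 0.05 went opposite ways. They were Atg4a, a protease that trims Atg8 proteins (0.68 ± 0.24, adjusted p = 0.127), and Atg10, an enzyme that joins ATG12 to ATG5 (-0.51 ± 0.20, adjusted p = 0.159). Of 14 initiation genes, 12 were below 0 with a median of -0.26. Tmem41b (-0.44 ± 0.18, edgeR adjusted p = 0.166) and Vmp1 (-0.37 ± 0.14, adjusted p = 0.156), both endoplasmic reticulum proteins needed to build the autophagosome, were lower at unadjusted p under 0.05. In AAV-miR ctrl against non-injected, 11 of the 14 initiation genes were also below 0, with a median of -0.12. There 2 of them were lower at unadjusted p under 0.05, where 2.24% of all genes were. Against both control groups together, all 7 receptor genes were below 0, with a median of -0.13. Besides Sqstm1, Calcoco1 was lower at unadjusted p under 0.05 (-0.55 ± 0.23, edgeR adjusted p = 0.180).

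Of the 17 genes of p97 and its cofactors, 2 were lower at unadjusted p under 0.05, Nsfl1c (-0.74 ± 0.24, adjusted p = 0.115), which encodes the cofactor p47, and Ufd1 (-0.42 ± 0.17, adjusted p = 0.159). The deubiquitinase gene Yod1 (0.73 ± 0.22, adjusted p = 0.104) and Ubxn7 (0.47 ± 0.21, adjusted p = 0.214) were higher. That is 23.5% of the list in either direction, close to the 22.2% of all genes (12.1% lower and 10.2% higher). In the TBK1 list Ikbke, the kinase most like TBK1, was higher by 1.21 ± 0.56 (adjusted p = 0.220) at only 1.27 to 13.6 CPM. Among 11 other ALS or frontotemporal dementia genes, Ccnf, which encodes cyclin F of a ubiquitin ligase, was higher by 0.99 ± 0.35 (adjusted p = 0.129). The VAP list had 1 of 9 lower, Vapb itself, and the ubiquilin list 0 of 3. None of these genes passed edgeR's adjusted threshold.

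**Figure D5:**
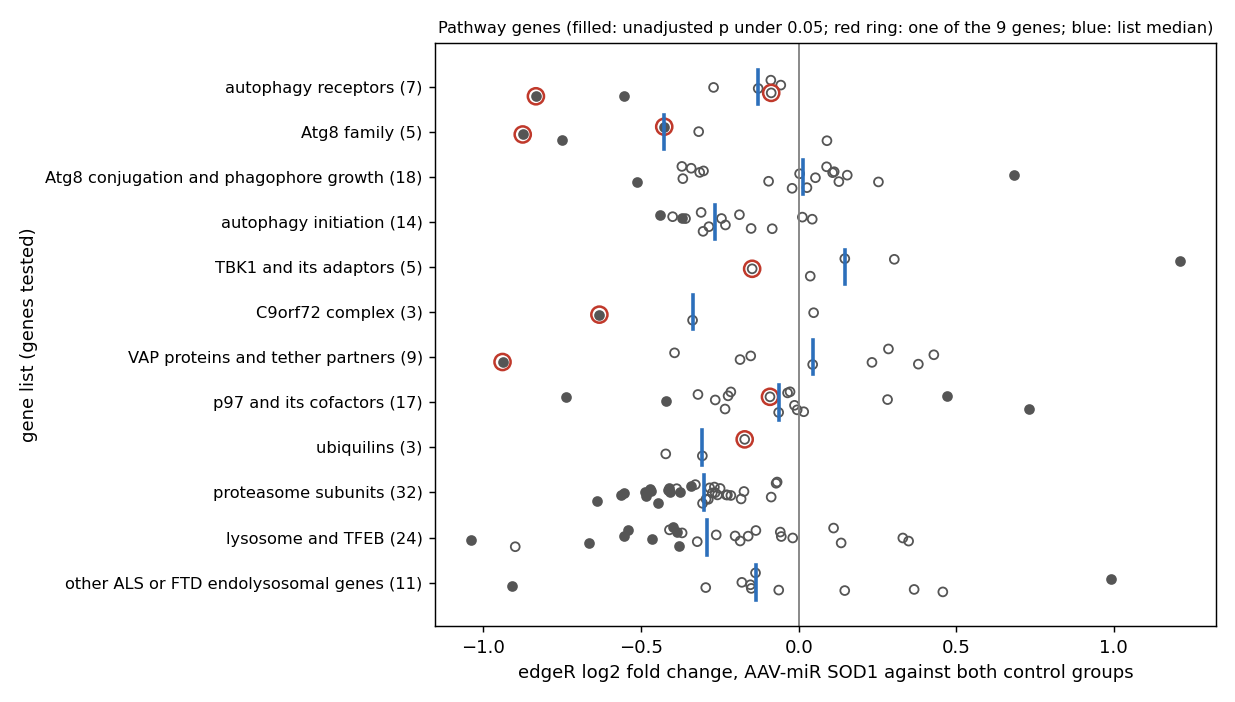
edgeR log2 fold change of AAV-miR SOD1 against both control groups for each gene of the 12 lists (points; filled at unadjusted p under 0.05; red rings mark the 9 genes), with the list median in blue; vertical scatter within a list has no meaning. All 32 proteasome subunits lie below 0, while the conjugation and p97 lists lie on both sides.

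Across the 13 libraries the members fell into different patterns, described here by correlations of log2 CPM that share library depth and cell content and carry no test. Sqstm1 ran with Gabarapl1 (Pearson r = 0.93, Spearman rho = 0.93), with Map1lc3b (0.93 and 0.90) and with Vapb (0.83 and 0.84). Vcp and Ubqln2 ran together (0.87 and 0.87) and Ubqln2 ran weakly opposite to Optn (-0.38 and -0.32). By Pearson r with Sqstm1, Gabarapl1 ranked only 186, Map1lc3b 220 and Vapb 1063 among the 17402 other tested genes. By Pearson r with Vcp, Ubqln2 ranked 31. Out of 17402 other tested genes, the 2 most like Sqstm1 by Pearson r were Epdr1 and the proteasome subunit gene Psmd12 (both r = 0.99), and for Gabarapl1 they were Elmod1 and Stmn3 (both 0.99). For Map1lc3b they were Ldhb (0.97) and Slc41a3 (0.96), for Vapb Map1lc3a and Lysmd2 (both 0.95), and for C9orf72 Cdc42bpa and Zfp248 (both 0.92). Optn was most like Ubxn2a (0.95) and Pitx3 (0.92), Vcp like Gm6142 (0.95) and Nxpe3 (0.93), Ubqln2 like Hnrnpul2 (0.95) and Gm6142 (0.93), and Tbk1 like Gm3636 (0.83) and Zdhhc15 (0.80), the lowest best matches of the set. Spearman's rho for these 18 pairs lay between 0.87 and 0.99.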

How the data were processed

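Each of the 13 libraries was made from total RNA of a motoneuron pool by SMARTer amplification and Nextera XT, per the labels' protocols, so p-values measure the spread between mice. The deposited values are whole-number read counts per gene that the authors made. The submitters' processing notes name cutadapt 1.8, STAR 2.5.2b, HTSeq 0.6.1 and build GRCm38. The annotation and strand setting are not given in the sources used here, so antisense overlaps are reported. The largest are given above with Sqstm1 and Gabarapl1. Genes on the opposite strand also overlap 7.3% of the exon bases of Vcp (1700022I11Rik, 0 to 7 counts) and 5.4% of those of C9orf72 (Gm12367, 0 to 21). For Optn the overlap is 1.9% (4930551O13Rik, 0 to 14 counts) and for Map1lc3b 0.8% (Zcchc14, 125 to 470). A further 5 summary rows were left out of totals. One of them, for reads without a unique alignment, held 42.3% to 56.8% of the counts in gene and summary rows together. The row for unaligned reads was 0, so this is not a share of all reads sequenced. By group it ran from 51.1% to 56.8% in AAV-miR SOD1, 44.6% to 53.8% in AAV-miR ctrl and 42.3% to 52.8% in non-injected.

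Identifiers were matched to GENCODE M21, where 48349 of 48709 rows had a symbol. Genes were kept with filterByExpr (minimum count 10, minimum total 15). Counts were scaled by TMM, log2 CPM used a prior count of 2, and edgeR 4.0.16 (R 4.3.3) fitted the 3 groups together with its quasi-likelihood test, with Benjamini-Hochberg adjustment over all 17403 genes, a threshold of 0.05 and 10 residual degrees of freedom. The common biological coefficient of variation was 0.470. DESeq2 1.42.0 and limma 3.58.1 (voom with quality weights) were alternatives, beside other scalings, filters, subsets of libraries, the header assignment and a replicate block. The depth puts 3 counts at 0.0802 to 0.216 CPM, which covers counting error only.

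The rule that names the members uses no measured value, but the members and gene lists were chosen with earlier results of these data known. Genes are named by rule: the members, their paralogs and partners, Sod1, up to 2 genes per list and direction with the smallest p against both control groups, and the 2 genes most like each member. One gene that the rule names is not reported here. List counts for the proteasome and lysosome under the alternatives, and the principal transcript length, were added after seeing the data. Promoter sequences are from RefSeq (GRCm38.p6), which held 8 of the 9 members, all but Ubqln2.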

Additional observations from a re-analysis of the deposited data

Results flagged for a closer look

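In 2 of the 27 combinations of gene and group examined, one library stood apart from the rest of its group by a gap that exceeds Dixon's 95% limit for 4 samples, 0.829 of the group's range. About 1.35 such cases would arise by chance among 27. Ubqln2 was at a log2 CPM of 5.74 in AAV-miR SOD1 replicate 2, where the nearest library of the group was at 5.27. C9orf72 was at 5.74 in non-injected replicate 3, where the nearest was at 5.20. That library is one of those whose column header and label disagree, and without it and AAV-miR ctrl replicate 3 the C9orf72 difference from non-injected was -0.33 in place of -0.57.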

How the results depend on the processing

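No member or pathway gene passed the adjusted threshold with edgeR in any comparison with all libraries. Against both control groups, DESeq2 passed 3 members and 9 of 148 pathway genes (6 of them outside the set), where 8.74% of all genes passed. There limma-voom passed 3 and 4 (1 outside the set), where 8.4% of all genes passed. In the same comparison a threshold of 0.1 with edgeR passed 1 pathway gene. Leaving out single libraries gave 0 to 4 members and 0 to 13 pathway genes, with the 4 and 13 without AAV-miR ctrl replicate 1, where 9.84% of all genes passed. Against non-injected, DESeq2 passed 1 member and 3 pathway genes, where 5.89% of all genes passed. Members at unadjusted p under 0.05 against non-injected numbered 3 with no scaling beyond totals, with only the groups compared, or without both header-mismatched libraries, and 3 to 5 with one library left out. Against AAV-miR ctrl they numbered 1 with libraries numbered 1 to 4, and AAV-miR ctrl against non-injected gave 0 to 1 with one library left out. The replicate block left 1 member at unadjusted p under 0.05 in each of the 3 AAV-miR SOD1 comparisons. The numbers do not pair the mice by the labels, so the reported values carry no block. With group means removed, same-numbered libraries of different groups correlated at -0.19 to 0.24 (8 pairs, median 0.02). Differently numbered ones correlated at -0.38 to 0.34 (48 pairs, median -0.01). A shared litter or batch was not tested.

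Signs turned only where no threshold was passed. For Optn the log2 difference from AAV-miR ctrl became 0.022 with RLE scaling and with DESeq2, 0.0036 with upper quartile scaling, 0.047 without scaling, 0.0089 without a filter, 0.30 in libraries numbered 1 to 4 and 0.31 with the replicate block. From non-injected it became 0.048 in libraries numbered 1 to 4, 0.014 with the header exchange and 0.14 with the block, and from both 0.17 in libraries numbered 1 to 4 and 0.23 with the block. For Vcp the difference from AAV-miR ctrl became 0.0095 without scaling. limma-voom gave 0.12 for Ubqln2 against non-injected and, between the control groups, 0.037 for Vcp and 0.32 for Ubqln2. Between the control groups the block gave 0.13 for Ubqln2, and exchanging the header-mismatched libraries gave 0.19 for Sqstm1, 0.17 for Optn, 0.14 for Vcp, 0.19 for Ubqln2, 0.27 for Gabarapl1 and 0.054 for Vapb. Leaving both out gave, between control groups, 0.10 for Sqstm1, 0.026 for Optn, 0.082 for Vcp, 0.16 for Ubqln2 and 0.11 for Gabarapl1. It gave 0.039 for Vcp against AAV-miR ctrl, 0.026, 0.12 and 0.14 for Tbk1, Vcp and Ubqln2 against non-injected, and 0.081 and 0.063 for Vcp and Ubqln2 against both.

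With single libraries left out, the differences that turned ranged as follows. Against AAV-miR ctrl, Optn ran from -0.15 to 0.19 and Vcp from -0.083 to 0.044. Against non-injected, Optn ran from -0.29 to 0.037, Tbk1 from -0.16 to 0.10, Vcp from -0.24 to 0.049 and Ubqln2 from -0.42 to 0.073. Against both, Optn ran from -0.22 to 0.034, Tbk1 from -0.24 to 0.026 and Vcp from -0.14 to 0.00062. Between the control groups, Sqstm1 ran from -0.19 to 0.082, Optn from -0.33 to 0.051, Vcp from -0.19 to 0.10, Ubqln2 from -0.28 to 0.22, Map1lc3b from -0.12 to 0.058 and Gabarapl1 from -0.31 to 0.043. The causes of these shifts were not tested. Every member had at least 362 counts in each library.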
